A study of Mus musculus with 18 samples.

Results

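The club cell secretoglobins are described here as 4 genes of 19938 measured, namely Scgb1a1, Scgb3a1, Scgb3a2 and Scgb1c1. They were chosen by name: each is the gene symbol of a single-symbol probe set on the array, read as probe set 10465840 for Scgb1a1, 10375608 for Scgb3a1, 10455389 for Scgb3a2 and 10558694 for Scgb1c1. RNA of mouse cells labelled as terminal bronchiolar epithelium of the lung was hybridised to 18 one-colour Affymetrix arrays, in 6 groups of 3, and the levels below are the deposited log2 values, on which a step of 1 is a doubling. All mice were on a mixture of FVB/N and C57BL/6 and all are labelled with naphthalene injury. Control mice and mice labelled Cebpa d/d, in which the gene of the transcription factor C/EBPa carries the d/d alleles, were each sampled at 0, 3 and 72 hr of that treatment. The labels give no age and no sex, and they do not name a Cre line, its promoter, or whether animals were pooled. Nothing states that the 3 arrays of a group came from separate animals, so the p-values measure the spread between arrays, which may be partly technical.

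Secretoglobins are small secreted proteins that pair through disulphide bonds into dimers with a pocket for lipid-like ligands. In the airway they are products of club cells, the non-ciliated secretory cells of the bronchioles, and Scgb1a1 is the standard marker of these cells. Naphthalene is turned into toxic products by Cyp2f2, a cytochrome P450 of club cells, so that exposed club cells die and the survivors restore the epithelium. Scgb3a2 is a secretoglobin of the bronchioles, Scgb3a1 is better known from the larger airways, and Scgb1c1 was described in the nasal mucosa.

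The promoters of Scgb3a1 and Scgb1c1 are shown because the study removes a promoter-binding factor, and C/EBP proteins, FOXA factors and NKX2-1 have all been studied at secretoglobin promoters. Only these 2 of the 4 promoters were read. Those of Scgb1a1 and Scgb3a2 were not searched, so the matches below do not describe the family. Each sequence is the 250 bases before the RefSeq start of the gene in GRCm38.p6, on the plus strand, at chr11:49663345-49663594 for Scgb3a1 and at chr7:140845315-140845564 for Scgb1c1. Capitals mark the NKX2-1 letters CTCAAG, or CTTGAG where the match is on the minus strand.
Scgb3a1: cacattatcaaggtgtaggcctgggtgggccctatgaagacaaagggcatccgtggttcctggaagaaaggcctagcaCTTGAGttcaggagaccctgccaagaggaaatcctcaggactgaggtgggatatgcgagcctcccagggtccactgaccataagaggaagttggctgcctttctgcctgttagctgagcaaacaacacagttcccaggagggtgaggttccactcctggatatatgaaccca
Scgb1c1: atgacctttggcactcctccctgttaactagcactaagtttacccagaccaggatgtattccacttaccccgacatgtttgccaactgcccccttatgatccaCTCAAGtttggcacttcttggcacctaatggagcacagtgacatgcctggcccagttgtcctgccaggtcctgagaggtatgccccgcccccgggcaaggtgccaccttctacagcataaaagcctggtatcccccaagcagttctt
Both windows held 53.6% G and C. The first base of the marked letters lies 172 bases before the start in Scgb3a1 and 147 bases before it in Scgb1c1. These letters were found in 13.3% of 32851 RefSeq promoter windows of the same length, both strands searched. Neither window held the C/EBP letters TTNNGNAA, found in 36.8% of all windows, the FOXA letters TGTTTAC (3.17%), a TATA box read as TATAAA (12.4%) or the CCAAT box read as CCAAT (33.8%). A match describes the sequence only, and a missing match says only that those letters are not in that window.

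Several facts of the arrays touch the values that follow. Cebpa itself averaged 1.58 lower on the log2 scale in Cebpa d/d over the 3 times (SE 0.24, limma adjusted p = 0.00953), but the array labelled control 0 hr replicate 1 held Cebpa at 7.89, against 10.07 and 10.17 in the other two arrays of its group and 7.83 to 8.27 in Cebpa d/d at 0 hr, so it goes against its label. Cebpa d/d 72 hr replicate 1 also stood apart: over the 26 genes that changed by more than 2 log2 units between 0 and 72 hr in control, its median position was 5.93% of the way along the control change, against 90.7% and 79.7% in the other two Cebpa d/d arrays at 72 hr. Its summed level of 9 mitosis genes was nevertheless 11.02, below the 11.59 and 11.94 of the other arrays of its group and above the 9.68 to 9.88 of Cebpa d/d at 0 hr. Cebpa in this array was 9.07, against 8.55 and 7.90 in the others of its group. Control arrays at 72 hr held Cebpa at 9.69 to 9.87. The array was doubted for lacking 72 hr changes, so every fit without it favours such changes in Cebpa d/d. The p-values of those fits add no support for them. Without both arrays the mean Cebpa difference was -1.92 (adjusted p = 5.58e-08). Without control 0 hr replicate 1 alone it was -1.82 (adjusted p = 8.07e-07). Since control 0 hr replicate 1 was doubted for its Cebpa level, leaving it out had to enlarge this difference. The smaller p-values are therefore no added support for it. Xist lay above the Y-linked Eif2s3y in 1 of 3 arrays in each group at 0 and 3 hr and in 3 of 3 arrays in both groups at 72 hr, so the 72 hr arrays read as female throughout. Markers of other cell types were read as well. The summed level of 8 heart muscle genes ran from 14.23 to 14.86 in the Cebpa d/d arrays of 0 hr. The 9 control arrays held 12.34 to 13.66. Of the 8, 4 were called higher in Cebpa d/d than in control at 0 hr, as were 65 of 19938 genes in all. The sum of 7 endothelial genes was 12.07 to 12.56 in control at 0 hr and 11.53 to 11.96 at 72 hr. In Cebpa d/d it was 12.21 to 12.49 and 11.64 to 11.81. The sum of 10 alveolar type 2 genes in control was lowest at 3 hr (14.30 to 14.39), with 14.59 to 14.68 at 0 hr and 14.57 to 14.87 at 72 hr. The part of these cells in the results was not tested.

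Scgb1a1, the defining product of club cells, stayed within 0.43 log2 units over all 18 arrays while the airway was injured and repaired. In control mice it read 12.66, 12.78 and 12.79 at 0 hr, 12.73, 12.70 and 12.74 at 3 hr, and 12.79, 12.71 and 12.79 at 72 hr. In Cebpa d/d it read 12.83, 12.82 and 12.84 at 0 hr, 12.73, 12.98 and 12.81 at 3 hr, and 12.55, 12.72 and 12.78 at 72 hr. The groups lay almost on top of each other, and the lowest array of all was Cebpa d/d 72 hr replicate 1.

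No contrast called Scgb1a1 at an adjusted p under 0.05. The 72 hr minus 0 hr difference in control was 0.02 (SE 0.08, 95% interval -0.15 to 0.19, limma adjusted p = 0.926). The same difference in Cebpa d/d was -0.14 (95% interval -0.32 to 0.03, adjusted p = 0.397), with no overlap between the arrays of both times, as for 11.3% of all genes in the same direction. Cebpa d/d lay 0.09 above control at 0 hr, again without overlap of arrays (adjusted p = 0.840), where 5.88% of all genes were higher with no overlap. The order of the 6 group means ran from Cebpa d/d at 3 hr (12.84) down to Cebpa d/d at 72 hr (12.68), and none of the 5 neighbouring steps, from 0.01 to 0.07, was larger than its SE.

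**Figure D1:**
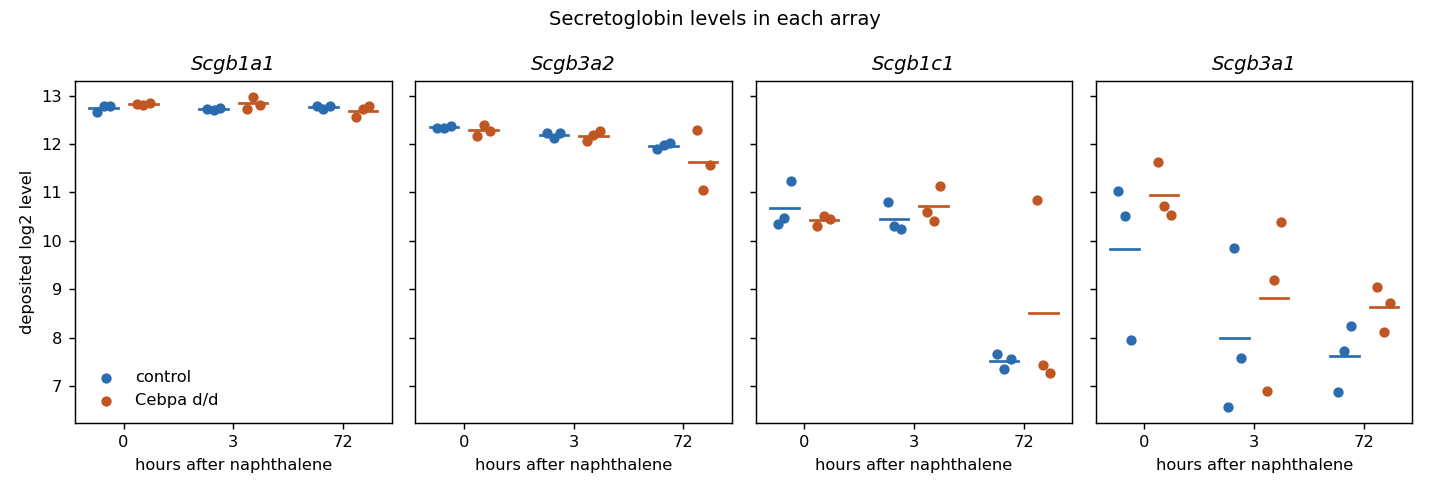
Deposited log2 level of each secretoglobin (vertical axis) in each of the 18 arrays by hours after naphthalene (horizontal axis), with control in blue and Cebpa d/d in orange; points are arrays and bars are group means of 3. Scgb1a1 and Scgb3a2 stay near the top, 5 of the 6 Scgb1c1 points of 72 hr lie below all its points of 0 and 3 hr, and Scgb3a1 spreads from 6.56 to 11.62.

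Whether a signal so bright could still move matters for this reading, since bright probe sets can be compressed. The Scgb1a1 probe set ranked from 45th to 151st of 35557 in brightness across the arrays and lay 0.82 to 1.33 below the brightest value of its array. Among the 41 genes with a mean of 12.5 or more, the median range of the 6 group means was 0.15, against 0.31 over all genes, and 0 of the 41 had a range over 1, against 5.65% of all genes. The range of Scgb1a1 was 0.16. Cyp2f2, the enzyme that activates naphthalene, had the largest range of the 41, at 0.76. It fell by 0.76 between 0 and 72 hr in control (SE 0.12, limma adjusted p = 0.00182). In that comparison 3 of the 41 were called, which is 7.32%, against 7.15% of all genes. The share was higher in dimmer bands, at 16.2% of the 899 genes from 10 to 12 and 13.5% of the 4101 from 8 to 10. In the next band, from 12 to 12.5, which holds Scgb3a2, the median range was 0.19 over 54 genes and 0 had a range over 1. Of these 54, 1 was called between 0 and 72 hr in control (1.85%). The values used here carry no mark of saturation, and whether the Scgb1a1 signal is compressed was not tested.

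**Figure D2:**
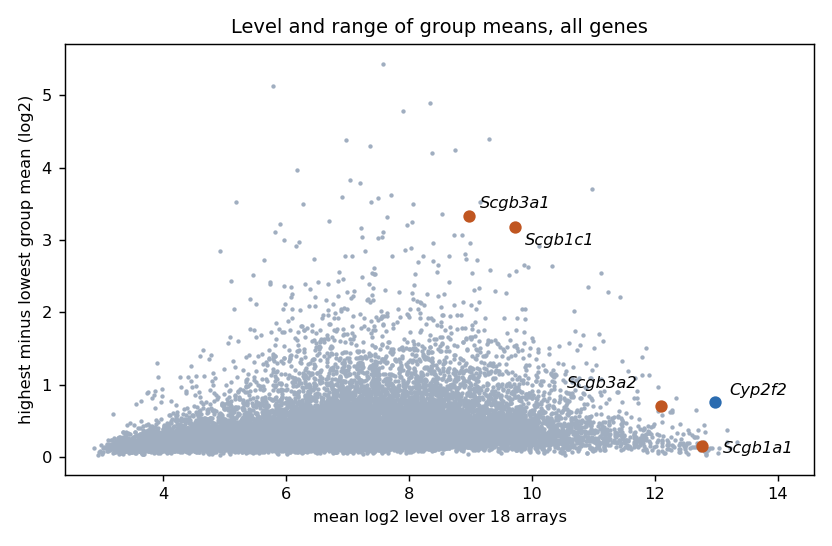
Each grey point is 1 of 19938 genes, with its mean log2 level over 18 arrays on the horizontal axis and the highest minus the lowest of its 6 group means on the vertical axis; the 4 secretoglobins are orange and Cyp2f2 is blue. Scgb1a1 lies at 0.16 among the brightest genes, and Scgb3a1 (3.34) and Scgb1c1 (3.19) lie far above most genes of their brightness.

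Scgb3a2, the bronchiolar secretoglobin whose promoter has been studied as a target of NKX2-1 and C/EBP proteins, read lower at 72 hr than in any 0 hr array of the same genotype in 3 of 3 control arrays and in 2 of 3 Cebpa d/d arrays. In control it read 12.34, 12.33 and 12.37 at 0 hr, 12.22, 12.12 and 12.22 at 3 hr, and 11.91, 11.98 and 12.01 at 72 hr. The 3 control times formed 3 steps with no overlap. In Cebpa d/d it read 12.17, 12.39 and 12.28 at 0 hr, 12.06, 12.18 and 12.28 at 3 hr, and 12.29, 11.05 and 11.56 at 72 hr. Replicates 2 and 3 at 72 hr were the lowest of all 18 arrays, and replicate 1 sat among the 0 hr arrays.

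None of these differences passed the test with all arrays in the fit. In control, 72 hr minus 0 hr was -0.38 (SE 0.19, 95% interval -0.79 to 0.03, limma adjusted p = 0.286), 72 hr minus 3 hr was -0.22 (adjusted p = 0.425) and 3 hr minus 0 hr was -0.16 (adjusted p = 0.669). No overlap in the lower direction was shown by 12.4%, 23.3% and 8.98% of all genes in these 3 comparisons. The Cebpa d/d difference for 72 hr minus 0 hr was -0.64 (95% interval -1.05 to -0.23, adjusted p = 0.0702) and 72 hr minus 3 hr was -0.54 (adjusted p = 0.104). Cebpa d/d 72 hr replicate 1 decided these calls: without it the Cebpa d/d values were -0.97 (adjusted p = 0.000132) and -0.86 (adjusted p = 0.000329), and the control 72 hr minus 0 hr value, unchanged at -0.38, had an SE of 0.11 and an adjusted p of 0.0449. Without both doubted arrays that control p was 0.0785. Replicate 1 was doubted for lacking 72 hr changes, so the Cebpa d/d values without it favour a fall. The genotypes differed by -0.06 at 0 hr, -0.02 at 3 hr and -0.33 at 72 hr (95% interval -0.74 to 0.08, adjusted p = 0.831). Without Cebpa d/d 72 hr replicate 1 the 72 hr value was -0.66 (95% interval -0.92 to -0.40, adjusted p = 0.0725). The group means ran from control at 0 hr (12.34) through Cebpa d/d at 0 hr (12.28), control at 3 hr (12.19), Cebpa d/d at 3 hr (12.17) and control at 72 hr (11.97) to Cebpa d/d at 72 hr (11.64), and no step between neighbours passed the test.

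Scgb1c1 fell during repair in control. It read 10.34, 10.47 and 11.23 in control at 0 hr, 10.79, 10.32 and 10.25 at 3 hr, and 7.66, 7.36 and 7.57 at 72 hr. The 0 and 3 hr arrays overlapped, and all 3 arrays at 72 hr lay more than 2 units below every earlier control array. The 72 hr minus 0 hr difference was -3.15 (SE 0.61, 95% interval -4.44 to -1.87, limma adjusted p = 0.00498), which is 8.91-fold lower, and the 72 hr minus 3 hr difference was -2.93 (SE 0.61, adjusted p = 0.00353), which is 7.60-fold lower. Scgb1c1 was thus 1 of 4 secretoglobins called lower in each of these comparisons, where 2.2% and 8.57% of all genes were called lower; the 2 comparisons share the 72 hr arrays. In these tissue samples, fewer cells of a type and less RNA per cell cannot be told apart.

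In Cebpa d/d, Scgb1c1 read 10.31, 10.51 and 10.44 at 0 hr, 10.60, 10.41 and 11.13 at 3 hr, and 10.84, 7.44 and 7.27 at 72 hr. Replicates 2 and 3 at 72 hr reached the level of the control arrays of that time, and replicate 1 lay among the arrays of 0 and 3 hr. The 72 hr minus 3 hr difference was -2.20 (SE 0.61, 95% interval -3.49 to -0.91, limma adjusted p = 0.0339), which is 4.59-fold lower, in a comparison where 3.67% of all genes were called lower. The 72 hr minus 0 hr difference was -1.91 (SE 0.61, adjusted p = 0.0879), where 1.42% of all genes were called lower. Without replicate 1 at 72 hr these became -3.36 (adjusted p = 5.12e-07) and -3.07 (adjusted p = 3.48e-06). That array was set apart by genes that change at 72 hr in control, as Scgb1c1 does. Leaving it out thus favours a fall, and these smaller p-values add no support for one. Leaving out any one of the Cebpa d/d 3 hr arrays, or Cebpa d/d 72 hr replicate 2 or 3, ended the call of 72 hr minus 3 hr, with adjusted p up to 0.175, whereas both control calls held whichever single array was left out.

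The genotypes did not separate on Scgb1c1. At 0, 3 and 72 hr, Cebpa d/d minus control gave -0.26, 0.26 and 0.99 (for the last, 95% interval -0.30 to 2.28, limma adjusted p = 0.836), and that last value became -0.17 without Cebpa d/d 72 hr replicate 1. The test of the difference in the 72 hr minus 0 hr change gave 1.25 (95% interval -0.57 to 3.07, adjusted p over 19938 genes = 0.9998), and 0.09 without that array. By group means the order was Cebpa d/d at 3 hr (10.71), control at 0 hr (10.68), control at 3 hr (10.45), Cebpa d/d at 0 hr (10.42), Cebpa d/d at 72 hr (8.52) and control at 72 hr (7.53), and no step between neighbours passed the test. All 72 hr arrays read as female, as did 1 of 3 arrays in each group of 0 and 3 hr. A sex term is therefore set by the arrays of 0 and 3 hr alone, and its size at 72 hr is assumed. The female control array at 0 hr held Scgb1c1 at 11.23 and that at 3 hr at 10.32, both above the 7.36 to 7.66 of control at 72 hr. With a sex term in the fit the control 72 hr minus 0 hr difference was -3.16 (adjusted p = 0.0207), and the Cebpa d/d 72 hr minus 3 hr difference of -2.20 was no longer called (adjusted p = 0.0894).

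**Figure D3:**
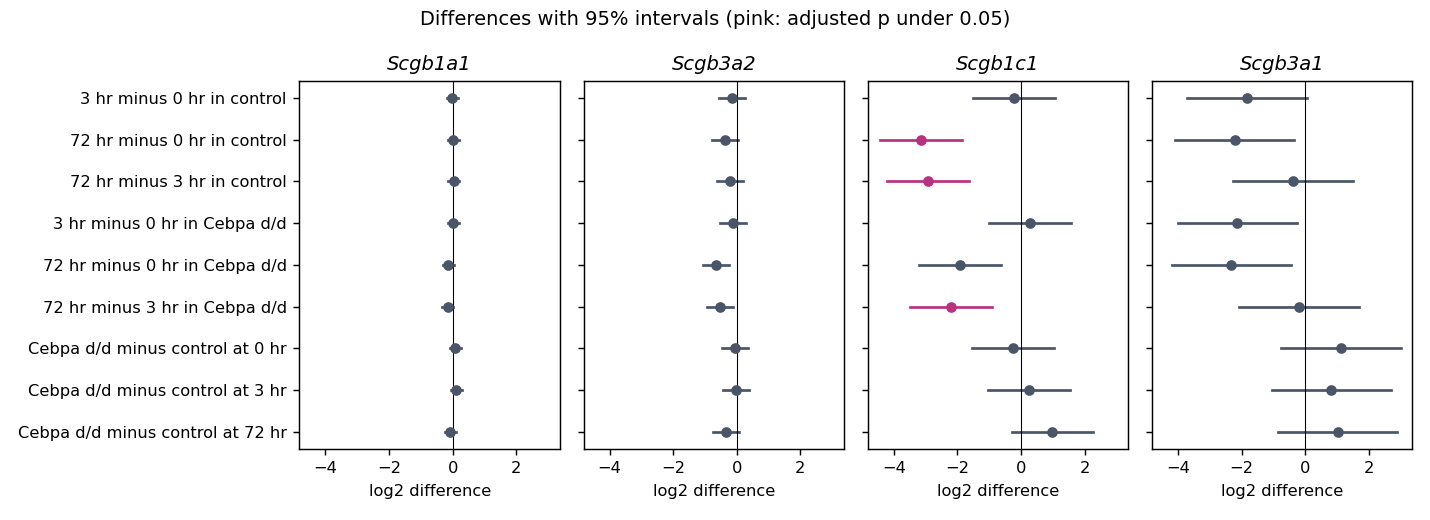
Log2 difference (horizontal axis) of each secretoglobin in 9 comparisons between groups (vertical axis), as points with 95% intervals from the limma fit; pink marks an adjusted p under 0.05. Pink points stand only in the Scgb1c1 panel, at -3.15, -2.93 and -2.20.

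Scgb3a1, the secretoglobin of larger airways, varied most from array to array. In control it read 11.04, 10.52 and 7.96 at 0 hr, 6.56, 9.85 and 7.59 at 3 hr, and 6.88, 7.72 and 8.24 at 72 hr. In Cebpa d/d it read 11.62, 10.72 and 10.52 at 0 hr, 6.89, 9.19 and 10.39 at 3 hr, and 9.05, 8.13 and 8.72 at 72 hr. Levels at 0 hr were the highest of each genotype on average, with control 0 hr replicate 3 down among the injured arrays. The standard deviation within groups was 1.27, the 8th largest of 19938 genes.

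No Scgb3a1 difference passed the test with all groups in the fit. Between 0 and 3 hr it changed by -1.84 in control (SE 0.89, 95% interval -3.72 to 0.04, limma adjusted p = 0.251) and by -2.13 in Cebpa d/d (adjusted p = 0.216). Between 0 and 72 hr the values were -2.22 in control (95% interval -4.10 to -0.34, adjusted p = 0.152) and -2.32 in Cebpa d/d (95% interval -4.20 to -0.44, adjusted p = 0.164). The arrays of both Cebpa d/d comparisons did not overlap, as for 11.9% and 11.3% of all genes in the same direction. When only the 6 arrays of the Cebpa d/d 72 hr and 0 hr groups were fitted, the same -2.32 had an SE of 0.31 and an adjusted p of 0.00626. Cebpa d/d exceeded control by 1.12 at 0 hr, 0.82 at 3 hr and 1.01 at 72 hr, with a mean of 0.98 (SE 0.51, 95% interval -0.10 to 2.07, adjusted p = 0.651), and the arrays overlapped at each time. Single arrays moved these values: leaving out 1 array at a time, the 0 hr difference ran from 0.18 (without control replicate 3) to 1.72 (without control replicate 1), that of 3 hr from 0.039 to 1.78, and that of 72 hr from 0.65 to 1.33. Likewise the 3 hr minus 0 hr values ran from -2.77 to -1.12 in control and from -2.91 to -1.17 in Cebpa d/d. The 72 hr minus 0 hr values ran from -3.16 to -1.62 in control and from -2.54 to -1.99 in Cebpa d/d. By group means the order was Cebpa d/d at 0 hr (10.96), control at 0 hr (9.84), Cebpa d/d at 3 hr (8.82), Cebpa d/d at 72 hr (8.63), control at 3 hr (8.002) and control at 72 hr (7.62), and no step between neighbours passed the test. The female array of control at 0 hr was replicate 3, at 7.96, inside the 6.88 to 8.24 of control at 72 hr, whereas the female array of Cebpa d/d at 0 hr held 11.62.

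Across the 3 genotype comparisons, their mean and the 3 comparisons of time course between genotypes, 0 of the 4 secretoglobins were called. Of all genes, 0.336% were called at 0 hr, 0.015% at 3 hr, 0.0702% at 72 hr, 0.306% for the mean, and 0%, 0.0953% and 0.01% for the differences in the 3 hr minus 0 hr, 72 hr minus 0 hr and 72 hr minus 3 hr changes. None was called for 3 hr minus 0 hr in either genotype either, where 3.5% of genes in control and 4.38% in Cebpa d/d were called. At an unadjusted p under 0.05, 1700, 1001 and 1259 genes differed between genotypes at 0, 3 and 72 hr, against 67, 3 and 14 called. With both doubted arrays left out, 0 of 4 were still called between genotypes. In that fit 1 of 4 was called lower at 72 hr in each control comparison. In each Cebpa d/d comparison 2 of 4, Scgb3a2 and Scgb1c1, were called lower at 72 hr. Of all genes, 8.4% and 21.9% were called in either direction at 72 hr against 0 and 3 hr in control. The Cebpa d/d shares were 7.23% and 10.1%.

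The genes whose levels ran closest to each secretoglobin differed from member to member, by Pearson r over the 18 arrays. The 5 closest to Scgb1c1 were Elapor1 (0.98), Aldh3b3, Ces1e and Cyp2f2 (0.97 each) and Slc4a5 (0.96). Cyp2f2 read 13.31, 13.22 and 13.23 in control at 0 hr and 12.55, 12.45 and 12.48 at 72 hr, and in Cebpa d/d at 72 hr it read 13.11, 12.41 and 12.62. Its Cebpa d/d 72 hr replicate 1 was thus high as for Scgb1c1. The arrays formed one cluster of high and one of low values, and within the 12 arrays of 0 and 3 hr the r of Scgb1c1 and Cyp2f2 was 0.45. As deviations from group means r was 0.88, and 0.24 without Cebpa d/d 72 hr replicate 1, so likeness within groups rested on that array. In all, 33 genes had r over 0.9 with Scgb1c1.

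Scgb3a1 ran closest to Muc5b (0.90), a gel-forming mucin of secretory cells, and Reg3g (0.85), an antimicrobial lectin, followed by Prl3d3 (0.82), Ptprm (0.80) and Olfr1090 (0.79). Muc5b read 8.96, 7.48 and 6.60 in control at 0 hr, 6.28, 7.27 and 6.52 at 3 hr, and 5.88, 6.11 and 6.28 at 72 hr. In Cebpa d/d it read 8.53, 8.63 and 8.60 at 0 hr, 6.55, 7.86 and 8.46 at 3 hr, and 7.55, 6.30 and 6.46 at 72 hr. Arrays high in one gene were high in the other inside groups too: the r of deviations from group means was 0.85, and 0.87 without Cebpa d/d 72 hr replicate 1. In control the summed level of 8 mucous cell markers was 10.03 to 10.66 at 0 hr and 9.90 to 10.19 at 3 hr. At 72 hr it was 9.47 to 9.72. The Cebpa d/d ranges were 10.57 to 11.03, 10.18 to 10.78 and 9.69 to 10.61. At 72 hr against 3 hr in control, 4 of the 8 were called lower and 1, Agr2, higher (1.90, limma adjusted p = 0.00312). Of all genes, 8.57% and 11.2% were called lower and higher. In Cebpa d/d against control, 1, 0 and 1 of the 8 were called higher at 0, 3 and 72 hr, and 2 on average. The shares of all genes called were 0.336%, 0.015%, 0.0702% and 0.306%. The part of these markers in the Scgb3a1 values was not tested. With all arrays in the fit Muc5b was called in none of the 13 comparisons, its 72 hr minus 0 hr difference in Cebpa d/d being -1.81 (SE 0.51, limma adjusted p = 0.0506); without control 0 hr replicate 1 the same value had an adjusted p of 0.0151, whereas leaving out Cebpa d/d 72 hr replicate 1 gave -2.20 (adjusted p = 0.0225).

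**Figure D4:**
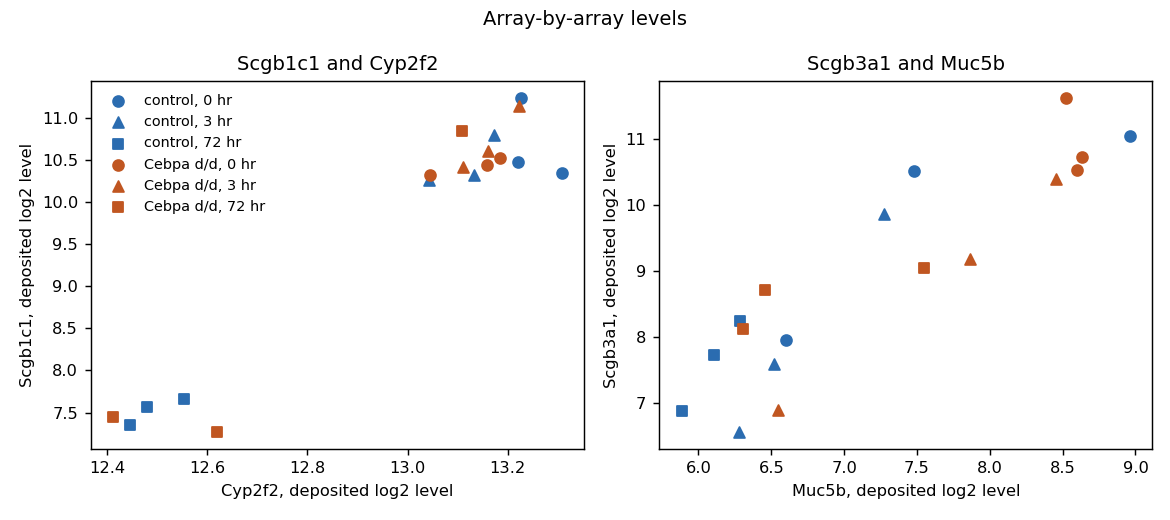
Left, Scgb1c1 against Cyp2f2; right, Scgb3a1 against Muc5b, each as deposited log2 levels with 1 point per array (colour for genotype, shape for hours). On the left 5 of the 6 arrays of 72 hr form a low cluster and Cebpa d/d 72 hr replicate 1 lies with the earlier arrays; on the right the arrays spread along one slope, with r 0.90.

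Scgb3a2 ran closest to Cyp1b1 (0.90), Aox3 and Mgst1 (0.87 each), Lrch3 and Cbr2 (0.85 each), of which Cyp1b1, Aox3, Mgst1 and Cbr2 encode enzymes of oxidation, conjugation or carbonyl reduction. Over the 12 arrays of 0 and 3 hr these 4 enzymes had r of 0.47, 0.09, 0.06 and 0.32, so the likeness lay mostly in the 72 hr arrays. As deviations from group means their r was 0.87, 0.83, 0.88 and 0.92. Without Cebpa d/d 72 hr replicate 1 these became 0.61, -0.05, 0.35 and 0.68. Scgb1a1 had no gene closer than Tubb2a, a tubulin, at 0.74, followed by Mgat4d and Gm11149 (0.73 each), Olfr1289 (0.72) and Rps12 (0.71). Among the members themselves only Scgb3a2 and Scgb1c1 ran together (0.77), and their r was 0.32 over the arrays of 0 and 3 hr. As deviations from group means their r was 0.85, and 0.12 without Cebpa d/d 72 hr replicate 1. All other pairs had r from 0.03 to 0.35.

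Of the transcription factors studied at secretoglobin promoters, 16 of 16 were measured. At 3 hr against 0 hr, 4 were called higher and 0 lower in each genotype. Of all genes, 3.5% in control and 4.38% in Cebpa d/d were called there in either direction. At 72 hr against 3 hr, 1 of the 16 was called higher and 6 lower in control, and 0 higher and 5 lower in Cebpa d/d. The shares of all genes were 11.2% higher and 8.57% lower in control, and 3.67% lower in Cebpa d/d. For 3 hr against 0 hr, the 4 of control were Cebpb, Cebpd, Jun and Fos, and those of Cebpa d/d were Cebpd, Jun, Fos and Klf5. Cebpd, an injury-induced C/EBP protein, rose by 1.04 in control (SE 0.24, limma adjusted p = 0.0268) and by 1.04 in Cebpa d/d (adjusted p = 0.0195); without control 0 hr replicate 1 the control value was 0.99 (adjusted p = 0.0832). Jun and Fos, the AP-1 subunits, then fell by 1.56 and 1.69 between 3 and 72 hr in Cebpa d/d (adjusted p = 3.09e-05 and 0.000152), and Klf5 fell by 0.91 in control (adjusted p = 0.000227). Without both doubted arrays, 2 and 4 of the 16 were called higher at 3 hr in control and in Cebpa d/d. The shares of all genes called there, in either direction, were 1.67% and 5.24%. NKX2-1 and FOXA2, the lineage factors, gave no called change: Nkx2-1 differed by 0.05 and Foxa2 by -0.16 between 0 and 72 hr in control (SE 0.10 and 0.14, adjusted p = 0.845 and 0.579), and by 0.07 and 0.03 between genotypes on average.

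Among 21 measured of 24 other club cell secretory and surface genes, 8 were called lower and 2 higher at 72 hr against 0 hr in control, with a median of -0.44 against -0.02 over all genes, and 8 lower and 1 higher at 72 hr against 3 hr. Of all genes, 2.2% were called lower and 4.95% higher in control against 0 hr, and 8.57% and 11.2% against 3 hr. The Cebpa d/d counts of the 21 were 2 lower and 2 higher against 0 hr, and 10 lower and 2 higher without both doubted arrays. There 1.42% of all genes were called lower with all arrays, and 7.23% in either direction without both doubted arrays. Ces1f, a carboxylesterase, fell by 3.17 between 3 and 72 hr in control (SE 0.44, limma adjusted p = 0.000192), Gsta3, a glutathione transferase, fell by 1.68 (adjusted p = 0.000427), and Sec14l3, a lipid transfer protein, rose by 0.83 (adjusted p = 0.000295). Cyp2f2 differed by -0.42 between 0 and 72 hr in Cebpa d/d (adjusted p = 0.0681). Without Cebpa d/d 72 hr replicate 1 that value was -0.61 (adjusted p = 0.00051), a fit that favours a fall because of how the array was picked. Between genotypes 0 of the 21 were called at any time or on average with all arrays in the fit. Without both doubted arrays 2 were called lower in Cebpa d/d at 0 hr, 1 at 72 hr and 3 on average, where 1.01%, 0.115% and 1.14% of all genes were called in either direction. They were Pon1, a paraoxonase (-1.50 on average, SE 0.19, adjusted p = 0.000891), Aox3, an aldehyde oxidase (-1.12, SE 0.10, adjusted p = 2.77e-05), and Sftpd, a surfactant protein (-0.33, SE 0.06, adjusted p = 0.0205); Pon1 and Aox3 made the 0 hr count and Aox3 that of 72 hr.

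Of 13 listed proteins proposed to bind or be bound by secretoglobins, 12 were measured, and 3 were called higher and 0 lower at 72 hr against 0 hr in control, namely Bgn, Sdc1 and Fn1, where 4.95% of all genes were called higher. The Cebpa d/d counts were 1 higher and 0 lower, where 675 of 19938 genes were called higher and 1.42% lower. Without both doubted arrays the counts were 3 higher and 1 lower in control and 4 higher and 0 lower in Cebpa d/d. In that fit 8.4% of all genes in control and 7.23% in Cebpa d/d were called in either direction. Against 3 hr, Bgn (biglycan) rose by 0.99 (SE 0.15, limma adjusted p = 0.000357), Sdc1 (syndecan) by 0.52 (adjusted p = 0.00322) and Fn1 (fibronectin) by 1.40 (adjusted p = 0.00733) in control. Of 15 secretory granule and exocytosis genes, 3 were called lower at 72 hr against 3 hr in control and 0 higher, against the 8.57% of all genes called lower. With all arrays none of the 15 was called in that comparison in Cebpa d/d, where 3.67% of all genes were called lower. Without both doubted arrays 1 was called lower, where 10.1% of all genes were called in either direction. The 3 of control were Bhlha15, a secretory cell regulator (-0.42, adjusted p = 0.00865), Syt2 (-0.36, adjusted p = 0.0112) and Sytl2 (-0.92, adjusted p = 0.0133). RNA levels of mitosis genes and of markers of other cell types also differed between times. In both genotypes 9 of 9 mitosis genes were called higher at 72 hr than at 0 hr. At 72 hr against 3 hr in control, 8 of 11 ciliated cell markers and 5 of 10 alveolar type 2 markers were called higher. So were 4 of 7 macrophage markers, 3 of 7 smooth muscle markers and 11.2% of all genes. Against 0 hr in control, 3 of 7 macrophage markers were called higher and 4 of 7 endothelial markers lower. Of all genes, 4.95% were called higher and 2.2% lower there. In Cebpa d/d against 0 hr, 6 of 11 ciliated markers were called higher and 7 of 8 heart muscle markers lower. There 675 of 19938 genes were called higher and 1.42% lower. The part of other cell types and of mitosis in the 72 hr values of the secretoglobins was not tested.

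The rest of the family read low, apart from a probe set of Scgb1b27. Of 25 other mouse secretoglobins listed, 7 were measured as genes, and 0 were called in any of the 13 comparisons. The 11 other probe sets that carry a secretoglobin symbol read between 3.11 and 6.93 over all arrays, in a range of 2.53 to 13.93 for the array values. The highest was the Scgb1b27 probe set, at 6.42 to 6.93, where the array medians ran from 6.48 to 6.65. In the RefSeq order of protein-coding genes in GRCm38.p6, Spink5 lies 2 genes after Scgb3a2. Spink5, a protease inhibitor, rose by 3.59 between 0 and 72 hr in control (limma adjusted p = 3.87e-10) and differed by 0.22 in Cebpa d/d (adjusted p = 0.487), and at 72 hr it was 3.75 lower in Cebpa d/d. Spink1 and Gm94, which flank Scgb3a2 directly, were called in none of these 3 comparisons, and Scgb3a2 itself showed no called difference between genotypes.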

How the data were processed

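Levels are log2 values deposited by the authors for 18 arrays; the submitters' processing notes name RMA, with no version or annotation given in the sources used here. Of 35557 probe sets, 21789 carried 1 gene symbol, and a gene with several such probe sets took the one with the highest mean, which left 19938 genes. Limma 3.58.1 (R 4.3.3) was fitted to 6 group means over all arrays (12 residual degrees of freedom, no filter), after a check on simulated data. P-values in 13 contrasts were two-sided and Benjamini-Hochberg adjusted over all genes, and called under 0.05. Gene lists were read as counts, with no set test, and summed levels are the log2 of summed linear values. The members and lists were chosen with earlier results of these data known. Named beside the members were the 5 genes most correlated with each, from the lists up to 3 with the smallest adjusted p, and Cebpa, Cyp2f2, Nkx2-1 and Foxa2. Cebpb, Cebpd, Spink5, Spink1, Gm94, Pon1, Aox3 and Sftpd were named after their values were seen, and the list counts and values of other named genes without the doubted arrays were added after seeing the data. The number of arrays limits the precision. Same-numbered arrays did not deviate together (r from -0.25 to 0.22 over 45 pairs), so they were not paired. Alternatives were a level filter, probe set means, trended robust moderation, array weights, a replicate block, fits of the compared groups alone, centring, a sex term, and leaving out each array or both doubted arrays.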

Additional observations from a re-analysis of the deposited data

How the results depend on the processing

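The control falls of Scgb1c1 at 72 hr against 0 and 3 hr kept their direction and their call under every alternative run, and in all 441 of 464 values of the 4 genes under the alternatives other than single arrays kept direction and side of the threshold. The replicate block, tried although the numbers do not pair the arrays, changed no call of the 4 genes, and the control 72 hr minus 0 hr difference of Scgb1c1 stayed at -3.15 with it (adjusted p = 0.00679). The Cebpa d/d 72 hr minus 3 hr call of Scgb1c1 was lost with trended robust moderation (-2.20, adjusted p = 0.0647), in the compared groups alone (-2.20, adjusted p = 0.166) and with a sex term (-2.20, adjusted p = 0.0894). Calls were gained with array weights for Scgb3a2 at 72 hr against 0 hr (-0.76) and 3 hr (-0.63) and for Scgb1c1 against 0 hr (-2.64) in Cebpa d/d, without both doubted arrays for the same 3 results (-0.97, -0.86 and -3.07), and in the compared groups alone for Scgb3a2 in control (-0.38, adjusted p = 0.0403) and Scgb3a1 in Cebpa d/d (-2.32) at 72 hr against 0 hr. Signs of uncalled values turned as follows. Centring moved the Scgb3a2 genotype difference at 3 hr to 0.0098. Array weights moved the mean genotype difference of Scgb1c1 to -0.033, Scgb1a1 to -0.015 for 72 hr minus 0 hr in control and -0.014 for 3 hr minus 0 hr in Cebpa d/d, and Scgb3a1 to 0.20 for 72 hr minus 3 hr in Cebpa d/d. The sex term moved Scgb1a1 in control to -0.020 (72 hr minus 0 hr) and -0.0036 (72 hr minus 3 hr). Without both doubted arrays, Scgb1c1 gave -0.17 between genotypes at 72 hr, -0.11 on average and -0.43 for the genotype difference in 72 hr minus 3 hr, for which Scgb3a1 gave -0.015, and Scgb1a1 gave -0.023 for 72 hr minus 0 hr in control. The cause of these shifts was not tested. Leaving out 1 array at a time gave these ranges for results whose sign or call changed. Of Scgb1a1, these were -0.055 to 0.068 for 3 hr minus 0 hr in Cebpa d/d, -0.060 to 0.0060 for 3 hr minus 0 hr in control, -0.023 to 0.044 for 72 hr minus 0 hr in control and -0.039 to 0.085 for the genotype difference in 3 hr minus 0 hr. Of Scgb3a2, these were -0.97 to -0.35 for 72 hr minus 0 hr in Cebpa d/d, -0.40 to -0.35 for 72 hr minus 0 hr in control, -0.86 to -0.24 for 72 hr minus 3 hr in Cebpa d/d, -0.068 to 0.040 for Cebpa d/d minus control at 3 hr, -0.0036 to 0.10 for the genotype difference in 3 hr minus 0 hr and -0.60 to 0.026 for the genotype difference in 72 hr minus 0 hr. Of Scgb1c1, these were -0.40 to 0.048 for 3 hr minus 0 hr in control, -3.07 to -1.28 for 72 hr minus 0 hr in Cebpa d/d, -3.36 to -1.57 for 72 hr minus 3 hr in Cebpa d/d, -0.43 to 0.016 for Cebpa d/d minus control at 0 hr, -0.17 to 1.61 for Cebpa d/d minus control at 72 hr, -0.057 to 0.54 for Cebpa d/d minus control, mean over the times and -0.43 to 1.35 for the genotype difference in 72 hr minus 3 hr. Of Scgb3a1, these were -1.15 to 0.59 for 72 hr minus 3 hr in Cebpa d/d, -1.10 to 0.54 for 72 hr minus 3 hr in control, -1.08 to 0.67 for the genotype difference in 3 hr minus 0 hr, -0.70 to 0.84 for the genotype difference in 72 hr minus 0 hr and -0.77 to 0.98 for the genotype difference in 72 hr minus 3 hr. Counts of genes called, with their range over the alternatives other than single arrays, were 67 (1 to 355), 3 (0 to 20), 14 (6 to 88) and 61 (43 to 431) between genotypes at 0, 3 and 72 hr and on average, 697 (55 to 993), 1425 (790 to 3133) and 3934 (2444 to 4358) in control for 3 hr against 0 hr, 72 hr against 0 hr and 72 hr against 3 hr, 874 (696 to 1214), 958 (553 to 1981) and 1705 (931 to 3913) for the same in Cebpa d/d, and 0 (0 to 24), 19 (3 to 69) and 2 (0 to 4) for the genotype differences in these changes. Of the genes called, 69.3% were higher at 72 hr than at 0 hr in control and 84.4% with arrays centred, 56.6% and 77.4% at 72 hr against 3 hr in control, and 44.3% and 27.3% in Cebpa d/d on average. The fit of compared groups alone was not run for the mean genotype difference, which uses all 6 groups.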
